A study of Mus musculus with 23 samples.

Results

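The genes named as numbered members of the tumour necrosis factor (TNF) superfamily were followed in mouse macrophages given a bacterial stimulus or 1 of 2 fatty acids. They are the genes whose symbol begins with Tnfsf (ligands) or Tnfrsf (receptors) and a number. The arrays measured 29 of them with a probe set that names no other gene, 9 ligands and 20 receptors, among 19938 genes in all; every member had 1 such probe set, and all 29 entered every test. TNF and other relatives with older names (Tnf, Cd40, Fas and the like) fall outside that rule and are described as a separate list.

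Bone marrow cells of wild type C57Bl/6 mice were grown into macrophages with M-CSF, a macrophage growth factor, at 10 ng/mL for 6 days. The adherent cells were treated 1 to 3 days after its removal. All 6 groups therefore share genotype, differentiation and a period without M-CSF; the ages of the mice are not given in the sources used here. The vehicle group (BSA; 3 arrays) received 125 µM bovine serum albumin. The lipopolysaccharide group (LPS, a bacterial cell wall product that activates Toll-like receptor signalling; 4 arrays) received 1 ng/mL. Oleic acid (OA) and stearic acid (SA) were each given at 250 µM, bound to albumin at 2 molecules of acid per albumin, for 5 h or for 20 h, with 4 arrays per acid and time. The acids have the same chain length; stearic acid is saturated and oleic acid has a double bond. The sample labels give 5 h for the vehicle and LPS groups and the series text 4 h, and there was no vehicle group at 20 h. The replicates are called biological in 1 place and replicate wells in another, so a p-value here reflects only how far these samples differ from each other, which may be technical variation.

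Ligands of the superfamily are mostly trimers on the cell surface, some of which are shed, and they signal by clustering their receptors. Receptors with a death domain can recruit caspase-8 and start apoptosis, others recruit TRAF adaptors and activate NF-kB, and decoy receptors bind ligand without transmitting a signal. Macrophages both make ligands that act on T cells, such as OX40 ligand and 4-1BB ligand, and carry receptors that shape their own fate, such as the TNF receptors and RANK, the receptor that drives osteoclast formation.

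Array medians over all probe sets lay between 3.98 and 4.12 on the deposited log2 scale, on which a step of 1 is a doubling of intensity. The log2 of the summed intensity of 8 macrophage markers ranged from 13.61 to 13.66 with vehicle, 13.53 to 13.60 in the 20 h OA group and 13.17 to 13.22 in the 20 h SA group. By limma (adjusted p under 0.05), 7 of the 8 passed as lower in the 20 h SA group relative to the 20 h OA group. Of all genes, 8.95% passed as lower in that comparison. After 5 h of SA all 8 had means below vehicle (highest change -0.08, log2), and 2 of them passed, against 1.39% of all genes lower. For LPS against vehicle, 2 markers passed as higher and 3 as lower, beside 9.22% and 13.2% of all genes. Marker lists of dendritic, T and NK, B and plasma, mast, and stromal and endothelial cells had mean levels between 2.33 and 3.95, while the neutrophil list had means between 6.00 and 6.36. With vehicle S100a8 and S100a9 of that list were at 11.4 and 10.9, Mpo at 4.52, and Cxcr2, Elane and Ly6g at 3.91, 3.76 and 2.58; S100a8, S100a9 and Cxcr2 rose between 5 h and 20 h of SA (0.33, 0.43 and 0.81, log2). With OA over the same time 5 of the 6 neutrophil genes had a positive change and 0 passed. The list's median change was 0.24 with OA and 0.28 with SA (log2). Between the acids at 20 h, 0 of that list passed. The part of these macrophage and neutrophil marker shifts in the results was not tested. The second 20 h SA array stood apart from the other 3 of its group (SD of its gene deviations 0.215, against 0.153 to 0.161). In bulk RNA, fewer cells of a type and less RNA per cell cannot be told apart.

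By level, 15 members lay above the highest array median in every group, 10 lay below it in every group, and Tnfsf10, Tnfsf13b, Tnfsf15 and Tnfsf4 lay on both sides. Below it an array may understate a change in RNA, by an amount these data do not give. Tnfrsf1b, the second TNF receptor, was at 10.03 ± 0.09 (SD, n = 3) with vehicle, and Tnfrsf1a, the death-domain TNF receptor, at 7.73 ± 0.14 (SD, n = 3). The intensity of different probe sets is not a measure of which RNA is more abundant, so members are compared with themselves across groups.

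The 250 bases before the start site are shown for members that carry the main findings and have a promoter in the RefSeq table (GRCm38.p6; 23 of 29 members matched, by symbol). Tnfsf10 and Tnfsf15 are ligands raised by LPS, Tnfrsf14 and Tnfrsf1b are receptors raised by LPS, Tnfrsf11a was lowered by LPS and by SA, and Tnfrsf23 differed between the acids at 20 h. Each is written 5′ to 3′ along its gene, and capitals mark a match on either strand to an ISRE half-pair, a pattern of interferon-response elements made of GAAA, any bases NN, and GAAA again.
Tnfsf10, chr3:27316827-27317076, plus strand: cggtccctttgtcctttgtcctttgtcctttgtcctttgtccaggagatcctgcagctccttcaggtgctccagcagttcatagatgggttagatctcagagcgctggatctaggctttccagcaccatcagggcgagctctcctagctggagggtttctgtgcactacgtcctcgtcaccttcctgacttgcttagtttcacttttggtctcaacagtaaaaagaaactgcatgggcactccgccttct
Tnfsf15, chr4:63745060-63745309, minus strand: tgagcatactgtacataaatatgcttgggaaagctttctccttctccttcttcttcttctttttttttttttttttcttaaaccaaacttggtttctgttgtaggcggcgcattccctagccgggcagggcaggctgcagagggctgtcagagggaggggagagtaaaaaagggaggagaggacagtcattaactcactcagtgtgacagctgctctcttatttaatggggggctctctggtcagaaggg
Tnfrsf14, chr4:154928078-154928327, minus strand: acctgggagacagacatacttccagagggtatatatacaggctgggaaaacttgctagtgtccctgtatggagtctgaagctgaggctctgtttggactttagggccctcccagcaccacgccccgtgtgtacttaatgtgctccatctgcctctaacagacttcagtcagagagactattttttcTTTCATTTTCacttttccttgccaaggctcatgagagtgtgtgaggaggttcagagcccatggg
Tnfrsf1b, chr4:145246871-145247120, minus strand: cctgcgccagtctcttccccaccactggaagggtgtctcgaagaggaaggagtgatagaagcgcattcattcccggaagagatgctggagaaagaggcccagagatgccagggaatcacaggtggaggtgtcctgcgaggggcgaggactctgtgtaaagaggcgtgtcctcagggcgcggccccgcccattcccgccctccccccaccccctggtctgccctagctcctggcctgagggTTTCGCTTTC
Tnfrsf11a, chr1:105780473-105780722, plus strand: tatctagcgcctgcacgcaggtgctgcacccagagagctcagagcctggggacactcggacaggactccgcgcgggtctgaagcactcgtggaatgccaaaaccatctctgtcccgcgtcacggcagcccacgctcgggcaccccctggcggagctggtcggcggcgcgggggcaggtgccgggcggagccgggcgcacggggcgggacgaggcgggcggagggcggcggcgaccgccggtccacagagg
Tnfrsf23, chr7:143685876-143686125, minus strand: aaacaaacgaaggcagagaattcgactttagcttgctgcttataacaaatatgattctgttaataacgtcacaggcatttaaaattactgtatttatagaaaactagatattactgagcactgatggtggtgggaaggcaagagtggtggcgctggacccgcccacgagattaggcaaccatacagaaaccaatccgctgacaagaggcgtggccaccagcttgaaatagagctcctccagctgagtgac

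The pattern occurred in 2.98% of 32851 promoter windows of that length in the table. Among the 27 windows of the 23 matched members it was present in 4, those of Tnfrsf14, Tnfrsf1b, Tnfrsf17 and Tnfsf13b. Counted from the start site, the match begins at position -64 in Tnfrsf14 and at -10 in Tnfrsf1b. The kappaB motif, searched on both strands, occurred in 3.9% of windows and in Tnfrsf8 and Tnfrsf9. The AP-1 pattern TGANTCA occurred in 6.75% of windows and in Tnfrsf8, Tnfrsf9, Tnfsf13b and Tnfsf14, and the C/EBP-ATF pattern TTGCATCA in 0.791% and in 0 members. The Tnfrsf9 window holds a pair of kappaB matches that overlap each other, and matches to different motifs did not overlap in the member windows. A match describes letters only.

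LPS raised 6 of the 9 ligands at 5 h and lowered 0 of them. Tnfsf10, Tnfsf15, Tnfsf4 and Tnfsf9 each rose at least 10.65-fold, Tnfsf8 rose 2.65-fold and Tnfsf18 1.60-fold. The receptors moved in both directions: 3 of 20 rose and 5 fell. In all, 14 of 29 members (48.3%) passed the test (limma, two-sided, Benjamini-Hochberg adjusted p under 0.05 over all 19938 genes), against 22.4% of all genes; 9.22% of all genes were higher and 13.2% lower. The median log2 change was 1.41 over the ligands, 0.15 over all members and -0.02 over all genes.

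Tnfsf10 (Entrez 22035) encodes TRAIL, a ligand that can kill cells through death receptors. It measured 2.78, 2.81 and 2.90 in the vehicle arrays and 6.32, 6.55, 6.89 and 6.58 in the LPS arrays. The groups were far apart, and the change was 3.75 ± 0.14 (log2, SE; limma adjusted p = 3.24e-16). In the other 16 arrays Tnfsf10 stayed between 2.19 and 3.07.

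Tnfsf15 (Entrez 326623) encodes TL1A, which costimulates T cells through Tnfrsf25. Its vehicle arrays read 3.80, 3.77 and 3.72 and its LPS arrays 7.17, 7.11, 7.41 and 7.04. No vehicle array came near an LPS array, with a change of 3.41 ± 0.13 (log2, SE; limma adjusted p = 2.81e-16). Tnfrsf25 itself was below the array median in every group, at 3.31 ± 0.20 (SD, n = 3) with vehicle and 3.29 ± 0.11 (SD, n = 4) with LPS.

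Tnfsf4 (Entrez 22164) encodes OX40 ligand, a costimulator of T cells. It measured 2.54, 3.11 and 3.07 with vehicle and 6.50, 6.13, 6.30 and 6.39 with LPS. The arrays did not overlap, and the change was 3.43 ± 0.16 (log2, SE; limma adjusted p = 1.63e-14). Its neighbour on chromosome 1, Tnfsf18 (Entrez 240873), encodes GITR ligand. Tnfsf18 read 2.52, 2.56 and 2.19 with vehicle and 3.44, 3.06, 2.42 and 3.47 with LPS. The third LPS array lay among the vehicle arrays, and the change was 0.67 ± 0.18 (log2, SE; limma adjusted p = 0.00803); without the third vehicle array it did not pass (0.56, adjusted p = 0.0635), nor with these groups fitted alone (adjusted p = 0.0545).

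Tnfsf9 (Entrez 21950) encodes 4-1BB ligand, another costimulator of T cells. It was at 4.54, 4.38 and 4.14 with vehicle and 7.69, 7.91, 7.99 and 7.76 with LPS. Again the groups did not overlap, with a change of 3.48 ± 0.19 (log2, SE; limma adjusted p = 3.22e-13). Its receptor Tnfrsf9 stayed below the array median in every group.

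Tnfsf8 (Entrez 21949) encodes CD30 ligand and lies next to Tnfsf15 on chromosome 4. It measured 2.05, 1.92 and 2.02 with vehicle and 3.68, 2.98, 3.47 and 3.48 with LPS, so the groups were apart although both lay below the array median. The change was 1.41 ± 0.18 (log2, SE; limma adjusted p = 8.42e-07). The other 3 ligands did not pass: Tnfsf11 (RANK ligand), Tnfsf13b (BAFF, a B cell survival factor) and Tnfsf14 (LIGHT). Tnfsf14 lies on chromosome 17 near Tnfsf9, with only Cd70, another ligand of the superfamily, between them.

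**Figure D1:**
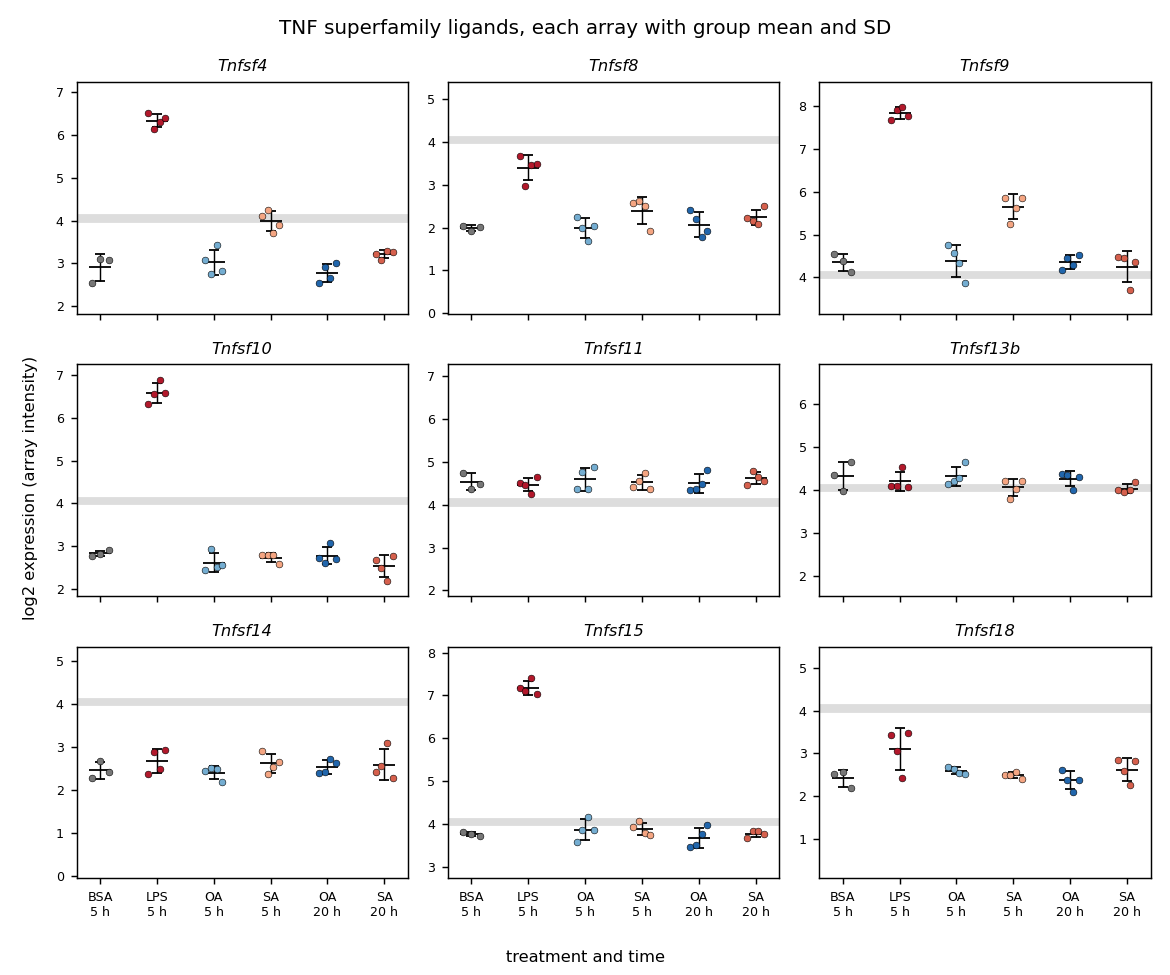
Levels of the 9 ligands on each of 23 arrays (points; y axis log2 intensity, the same span in every panel; x axis treatment and time), with group mean and SD. The grey band is the range of array medians, 3.98 to 4.12; the LPS points of Tnfsf10, Tnfsf15, Tnfsf4 and Tnfsf9 lie at 6.13 or above while their vehicle points lie at 4.54 or below, and SA at 5 h is set apart for Tnfsf4 and Tnfsf9.

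Among receptors, Tnfrsf14 (Entrez 230979), the herpesvirus entry mediator that binds LIGHT and BTLA, rose most with LPS. It read 6.12, 5.94 and 6.10 with vehicle and 7.03, 6.54, 6.73 and 7.16 with LPS, a change of 0.82 ± 0.14 (log2, SE; limma adjusted p = 5.69e-05) with no overlap. Both TNF receptors rose as well. Tnfrsf1b (Entrez 21938) went from 9.94, 10.02 and 10.13 to 10.63, 10.54, 10.55 and 10.43, a change of 0.51 ± 0.08 (log2, SE; limma adjusted p = 1.82e-05). Tnfrsf1a (Entrez 21937) changed less, from 7.77, 7.85 and 7.58 to 8.28, 8.13, 8.02 and 7.93. Its groups did not overlap, and its change of 0.35 ± 0.10 (log2, SE; limma adjusted p = 0.0105) did not pass after quantile normalisation (adjusted p = 0.0597) or without the third vehicle array (adjusted p = 0.0926).

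5 receptors fell with LPS: Tnfrsf26, Tnfrsf21, Tnfrsf22, Tnfrsf12a and Tnfrsf11a. Tnfrsf21 (Entrez 94185) encodes death receptor 6. It read 6.53, 6.67 and 6.68 with vehicle and 5.70, 5.78, 6.01 and 6.05 with LPS, and fell by 0.74 ± 0.11 (log2, SE; limma adjusted p = 1.74e-05) with no overlap. Tnfrsf12a (Entrez 27279) encodes Fn14, the receptor of the cytokine TWEAK. Its vehicle arrays were at 5.53, 5.53 and 5.67 and its LPS arrays at 4.84, 5.33, 4.77 and 4.84. The second LPS array was nearest to the vehicle arrays without reaching them, and Tnfrsf12a fell by 0.63 ± 0.14 (log2, SE; limma adjusted p = 0.0013).

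Tnfrsf26 (Entrez 244237), Tnfrsf22 (Entrez 79202) and Tnfrsf23 (Entrez 79201) lie side by side on chromosome 7. Tnfrsf22 and Tnfrsf23 encode mouse decoy receptors that bind TRAIL, and Tnfrsf26 encodes a related receptor. The genes are alike in sequence, and whether a probe set also takes up RNA of its neighbours was not tested. With vehicle Tnfrsf26 read 6.39, 6.16 and 6.43, and with LPS 5.24, 5.40, 6.07 and 5.53; it fell by 0.77 ± 0.17 (log2, SE; limma adjusted p = 0.00112). Tnfrsf22 read 6.14, 6.03 and 5.79 with vehicle and 5.58, 5.45, 5.05 and 4.97 with LPS, and fell by 0.72 ± 0.13 (log2, SE; limma adjusted p = 0.000166). Neither pair of groups overlapped. Tnfrsf23 differed by -0.26 and did not pass; its arrays overlapped, at 5.71, 5.94 and 5.71 with vehicle and 5.66, 5.15, 5.80 and 5.48 with LPS.

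Tnfrsf11a (Entrez 21934) encodes RANK. It measured 6.80, 6.93 and 6.86 with vehicle and 6.58, 6.66, 6.31 and 6.42 with LPS. The groups were apart, and it fell by 0.37 ± 0.10 (log2, SE; limma adjusted p = 0.00902); without the second vehicle array the adjusted p was 0.0505. The death receptor for TRAIL, Tnfrsf10b, lay below the array median at 3.60, 3.23 and 3.70 with vehicle and 4.05, 3.93, 3.73 and 3.75 with LPS. These arrays did not overlap, but the difference of 0.35 ± 0.18 (log2, SE) did not pass (limma adjusted p = 0.194).

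With SA at 5 h, 2 ligands and 1 receptor changed. Against vehicle, Tnfsf9 rose 2.45-fold, Tnfsf4 rose 2.12-fold and Tnfrsf11a was 1.71-fold lower, and no other member passed: 3 of 29 (10.3%) against 3.33% of all genes (1.94% higher and 1.39% lower). Against OA at the same time and dose these 3 members again passed, in the same directions, against 5.67% of all genes (3.3% higher and 2.37% lower). OA against vehicle gave 0 of 29 members by limma, where 0.0702% of all genes passed (0.0201% higher and 0.0502% lower). At an unadjusted p under 0.05 it also gave 0 members, and the share of all genes at that threshold was not counted. The 2 SA comparisons share the SA arrays, and the comparisons with vehicle share the vehicle arrays, so they are not independent. Of all genes, 664 passed for SA against vehicle and 373 did with these groups fitted alone; against OA the counts were 1131 and 660.

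For Tnfsf9 the 5 h SA arrays read 5.85, 5.24, 5.63 and 5.87, above every vehicle array and above the 5 h OA arrays at 4.76, 4.57, 4.33 and 3.88. The change was 1.29 ± 0.19 against vehicle (log2, SE; limma adjusted p = 0.000103). Against OA it was 1.26 ± 0.18 (log2, SE; limma adjusted p = 2.93e-05). The 5 h OA arrays spread on both sides of the vehicle arrays.

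For Tnfsf4 the 5 h SA arrays read 4.11, 4.25, 3.71 and 3.90 and the 5 h OA arrays 3.08, 2.76, 3.43 and 2.83. SA was above OA and vehicle on every array. The change was 1.09 ± 0.16 against vehicle (log2, SE; limma adjusted p = 0.000114) and 0.97 ± 0.15 against OA (limma adjusted p = 0.000103).

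Tnfrsf11a read 6.00, 6.16, 5.89 and 6.31 with SA and 6.96, 6.93, 6.98 and 6.82 with OA at 5 h. The OA arrays lay at the vehicle level and all SA arrays below it. Tnfrsf11a fell by 0.77 ± 0.10 against vehicle (log2, SE; limma adjusted p = 2.66e-05) and by 0.83 ± 0.10 against OA (limma adjusted p = 1.32e-06).

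Tnfsf8 read 2.56, 2.61, 2.50 and 1.92 with SA and 2.24, 1.98, 1.69 and 2.05 with OA at 5 h. The fourth SA array lay among the OA arrays and the others above them, and the difference of 0.41 ± 0.16 (log2, SE) did not pass (limma adjusted p = 0.178); without that array it was 0.57 and did (adjusted p = 0.0354). Tnfrsf26 lay above every vehicle array with SA at 5 h, by 0.40 ± 0.17, and Tnfrsf1b above every OA array, by 0.19 ± 0.07 (log2, SE), but neither passed (limma adjusted p = 0.255 and 0.145). For the 26 members that did not pass between SA and OA at 5 h, the 95% intervals of the difference ran from -0.58 (lower bound, Tnfrsf18) to 0.74 (upper bound, Tnfsf8) in log2, and 20 of them lay within 0.5 of 0. Between OA and vehicle the 29 intervals ran from -0.51 (Tnfsf10) to 0.61 (Tnfrsf17), and 26 lay within 0.5 of 0.

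Set directly against LPS, SA at 5 h left 10 members lower and 5 higher, 51.7% of members against 22.1% of all genes (13% higher and 9.11% lower). All 6 ligands raised by LPS were lower with SA, by 3.85 ± 0.13 for Tnfsf10 and by 2.19 ± 0.18 for Tnfsf9 (log2, SE; limma adjusted p = 5.81e-17 and 4.45e-10). Tnfsf15 was lower by 3.30 ± 0.12, Tnfsf4 by 2.34 ± 0.15 and Tnfsf8 by 1.00 ± 0.16 on the same scale. Thus Tnfsf9 and Tnfsf4, the ligands that rose with SA, stood at 5.65 ± 0.29 and 3.99 ± 0.24 (SD, n = 4) with SA, against 7.84 ± 0.14 and 6.33 ± 0.16 with LPS. Tnfsf10 at 2.79, 2.78, 2.79 and 2.58 and Tnfsf15 at 3.92, 4.07, 3.79 and 3.74 with SA were near their vehicle values. Tnfsf18, at 2.49, 2.50, 2.57 and 2.40 with SA, was lower by 0.61 ± 0.17; this did not pass without the first or the fourth LPS array (adjusted p = 0.0514 and 0.0515).

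Receptors separated LPS from SA as well. Tnfrsf14 was lower with SA by 0.94 ± 0.13 (5.91, 5.79, 6.12 and 5.89 with SA; limma adjusted p = 2.6e-06), Tnfrsf1a by 0.49 and Tnfrsf1b by 0.42. Tnfrsf26 was higher with SA by 1.17 ± 0.15 (6.69, 6.94, 6.83 and 6.46; limma adjusted p = 1.88e-06), Tnfrsf22 by 0.84, Tnfrsf12a by 0.80, Tnfrsf21 by 0.63 and Tnfrsf23 by 0.39. Of these, Tnfrsf23 had overlapping arrays and did not pass without the second LPS array (adjusted p = 0.0719) or with the groups fitted alone (adjusted p = 0.0657). Tnfrsf11a was lower than vehicle with both, and it was lower with SA than with LPS by 0.40 ± 0.10 (limma adjusted p = 0.00232).

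**Figure D2:**
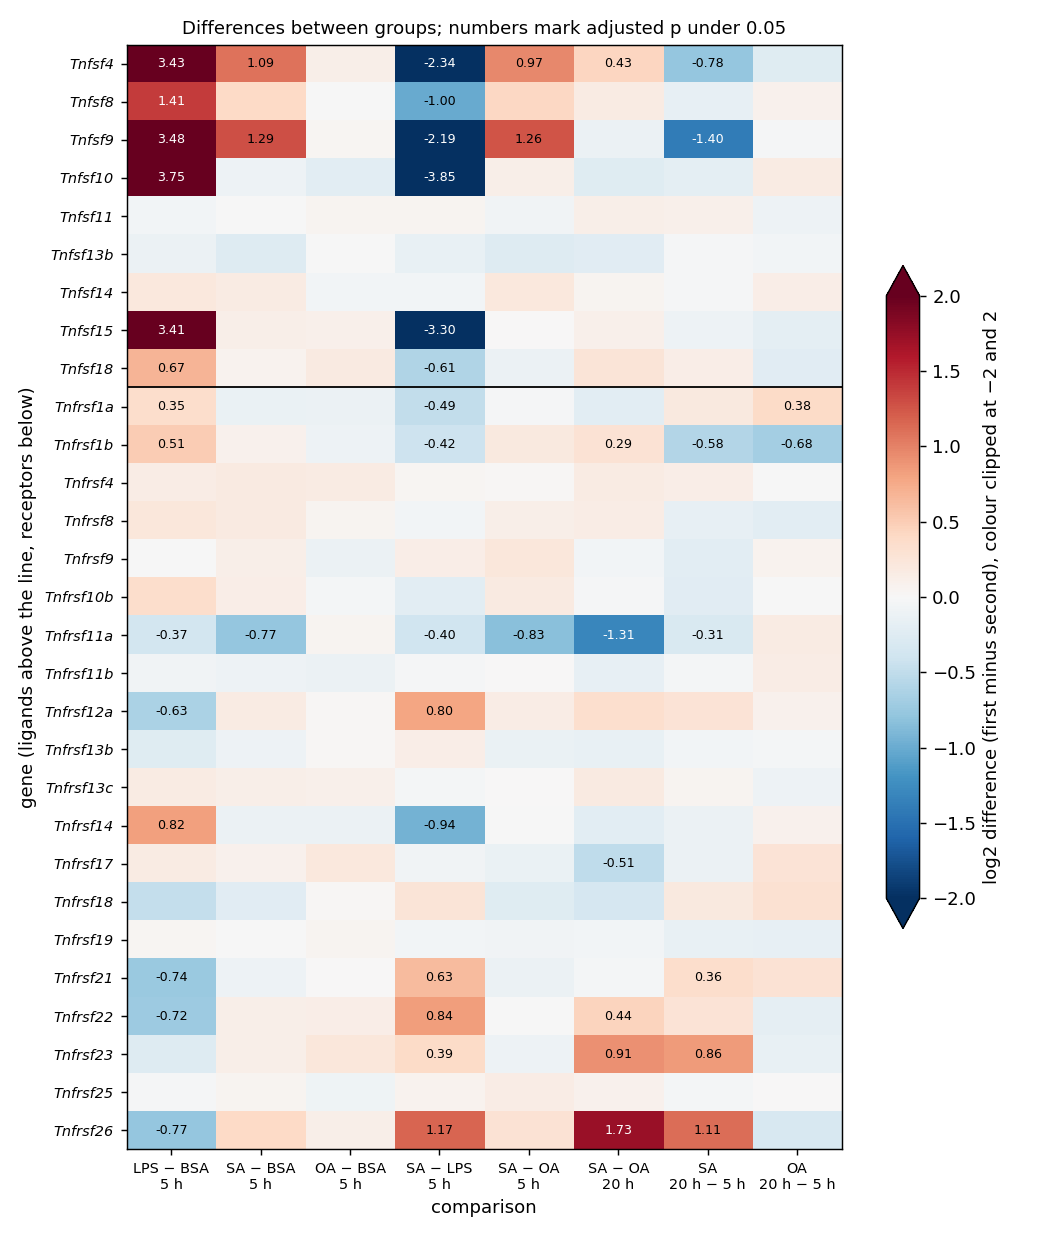
Log2 change of each of the 29 members (rows) in each comparison of a pair of groups (columns), as cells coloured from blue (lower) to red (higher), with the value written where the test was passed. Against vehicle, the LPS column holds 14 values, the OA column 0, and the SA column those of Tnfsf4, Tnfsf9 and Tnfrsf11a.

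When the acids were compared at 20 h, SA left 4 receptors and 1 ligand higher and 2 receptors lower. That is 7 of 29 members (24.1%) against 16.7% of all genes (7.72% higher and 8.95% lower). The cluster on chromosome 7 was higher with SA as a whole, Tnfrsf26 3.31-fold, Tnfrsf23 1.88-fold and Tnfrsf22 1.36-fold, and Tnfrsf11a was 2.48-fold lower. With the first 20 h OA array left out, 4 members passed.

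Tnfrsf26 measured 7.89, 7.54, 8.09 and 7.86 with SA and 6.07, 6.07, 5.97 and 6.36 with OA. The lowest SA array was more than 1 log2 unit above the highest OA array, and the difference was 1.73 ± 0.15 (log2, SE; limma adjusted p = 5.24e-09). Tnfrsf23 read 6.86, 6.74, 6.72 and 6.75 with SA and 5.76, 5.90, 5.85 and 5.92 with OA, a difference of 0.91 ± 0.11 (log2, SE; limma adjusted p = 8.98e-07). Tnfrsf22 read 6.26, 6.35, 6.51 and 6.37 with SA and 5.72, 6.02, 6.03 and 5.95 with OA. These also did not overlap, with a difference of 0.44 ± 0.12 (log2, SE; limma adjusted p = 0.0115), which did not pass without the first OA array (adjusted p = 0.0573).

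Tnfrsf11a was the receptor furthest down. It read 5.82, 5.89, 5.65 and 5.76 with SA and 7.15, 7.09, 7.16 and 6.95 with OA at 20 h, and fell by 1.31 ± 0.10 (log2, SE; limma adjusted p = 1.45e-10). Every SA array was more than 1 log2 unit below every OA array. The macrophage marker Csf1r, the M-CSF receptor, was lower by 0.55 in the same comparison, and Fcgr1 by 2.13; their part in the result was not tested.

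Tnfrsf1b was higher with SA, at 9.55, 9.64, 9.44 and 9.51 against 9.24, 9.29, 9.28 and 9.19 with OA, without overlap. The difference was 0.29 ± 0.07 (log2, SE; limma adjusted p = 0.00635). The remaining calls were marginal. Tnfsf4 read 3.22, 3.08, 3.28 and 3.26 with SA and 2.54, 2.91, 2.66 and 3.01 with OA (0.43 ± 0.15, limma adjusted p = 0.048). Tnfrsf17, the B cell maturation antigen, read 3.06, 3.03, 3.04 and 2.82 with SA and 3.60, 3.21, 3.53 and 3.65 with OA (-0.51 ± 0.18, limma adjusted p = 0.048). Neither had overlapping arrays, and both lay below the array median. Leaving out 1 array of these groups at a time lost the call in 6 of 8 refits for Tnfsf4 (adjusted p up to 0.17, without the first OA array) and in 7 of 8 for Tnfrsf17 (up to 0.13, without the fourth OA array).

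Tnfsf9, which separated the acids at 5 h, read 4.48, 4.46, 3.71 and 4.35 with SA and 4.17, 4.46, 4.30 and 4.51 with OA at 20 h. The groups overlapped. For the 22 members that did not pass at 20 h, the 95% intervals ran from -0.68 (Tnfrsf18) to 0.60 (Tnfsf18), and 16 of the 22 lay within 0.5 of 0. Tnfrsf10b, known as a target gene of the stress factor CHOP, differed by -0.03 ± 0.17 at 20 h and 0.18 ± 0.17 at 5 h (log2, SE; limma adjusted p = 0.95 and 0.683). Its probe set lay below the highest array median in every group, where a change in RNA may be understated. At 5 h its SD was 0.40 with SA and 0.35 with OA, so a modest change could be missed. In the same comparisons, 8 and 9 of the 10 genes listed for the ATF4 and CHOP branch of the stress response passed as higher with SA. None passed as lower, and of all genes 7.72% and 3.3% were higher. Ddit3, which encodes CHOP, was higher by 1.92 ± 0.10 and 1.48 ± 0.10 (log2, SE; limma adjusted p = 4.36e-13 and 2.67e-10).

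**Figure D3:**
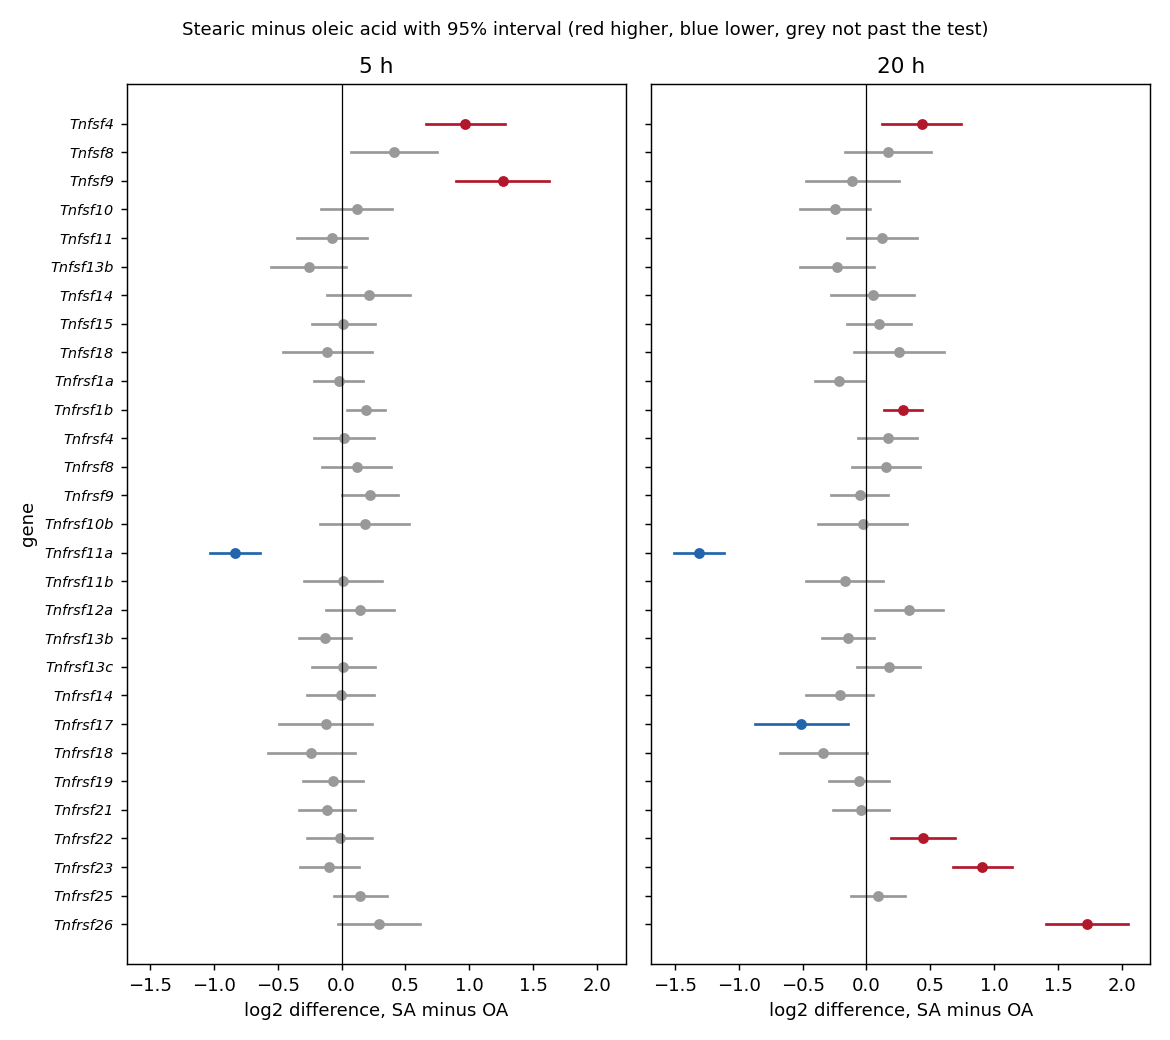
Log2 difference between SA and OA for each of the 29 members (points, x axis) with its 95% interval (bars), at 5 h (left) and 20 h (right). Red and blue mark members that passed the test higher and lower with SA: Tnfsf4, Tnfsf9 and Tnfrsf11a at 5 h, and Tnfrsf26, Tnfrsf23, Tnfrsf22, Tnfrsf1b, Tnfsf4, Tnfrsf11a and Tnfrsf17 at 20 h.

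The difference between the acids itself changed with time for 4 members, 13.8% against 4.98% of all genes (1.58% higher and 3.4% lower). It grew by 1.44 ± 0.22 for Tnfrsf26 and by 1.00 ± 0.16 for Tnfrsf23 (log2, SE; limma adjusted p = 8.97e-05 and 0.000122), and shrank for Tnfsf9 (-1.37 ± 0.25, limma adjusted p = 0.000753). For Tnfrsf11a it changed by -0.48 ± 0.13 (limma adjusted p = 0.037), and this call was lost in 10 of the 16 refits that left out 1 array. The 20 h arrays also differ from the 5 h arrays in time in culture, and without a 20 h vehicle group a change common to both acids cannot be told apart from time.

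Within SA, 7 members changed from 5 h to 20 h, 3 up and 4 down (24.1%, against 12.8% of all genes, 6.23% higher and 6.57% lower). Tnfrsf26 rose by 1.11 ± 0.15 and Tnfrsf23 by 0.86 ± 0.11 (log2, SE; limma adjusted p = 9e-06 and 3.29e-06), the latter from 6.00, 5.76, 5.93 and 5.95. Tnfsf9 fell by 1.40 ± 0.18 and Tnfsf4 by 0.78 ± 0.15 (log2, SE; limma adjusted p = 2.37e-06 and 0.000558). Tnfrsf1b fell by 0.58 ± 0.07 (limma adjusted p = 1.91e-06), from 10.08, 10.12, 10.18 and 10.09 at 5 h. Tnfrsf21 rose by 0.36 ± 0.11 and Tnfrsf11a fell by 0.31 ± 0.10 (limma adjusted p = 0.0234 and 0.0297); both lost the call with these groups fitted alone (adjusted p = 0.109 and 0.127). The Tnfrsf21 arrays overlapped.

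Within OA, 2 members changed (6.9%, against 4.38% of all genes, 2.58% higher and 1.8% lower). Tnfrsf1b fell by 0.68 ± 0.07 (limma adjusted p = 9.07e-07), from 9.83, 9.98, 9.95 and 9.94 to the 20 h values above, so it was lower at 20 h with both acids. Tnfrsf1a rose by 0.38 ± 0.09 (limma adjusted p = 0.0147), from 7.68, 7.55, 7.54 and 7.70 to 7.92, 8.04, 8.02 and 8.02; without the second or the third 5 h OA array it did not pass (adjusted p = 0.0523 and 0.0552). Tnfrsf26 in OA read 6.63, 6.48, 6.54 and 6.10 at 5 h and Tnfrsf23 6.22, 5.89, 5.85 and 6.06, and neither passed.

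**Figure D4:**
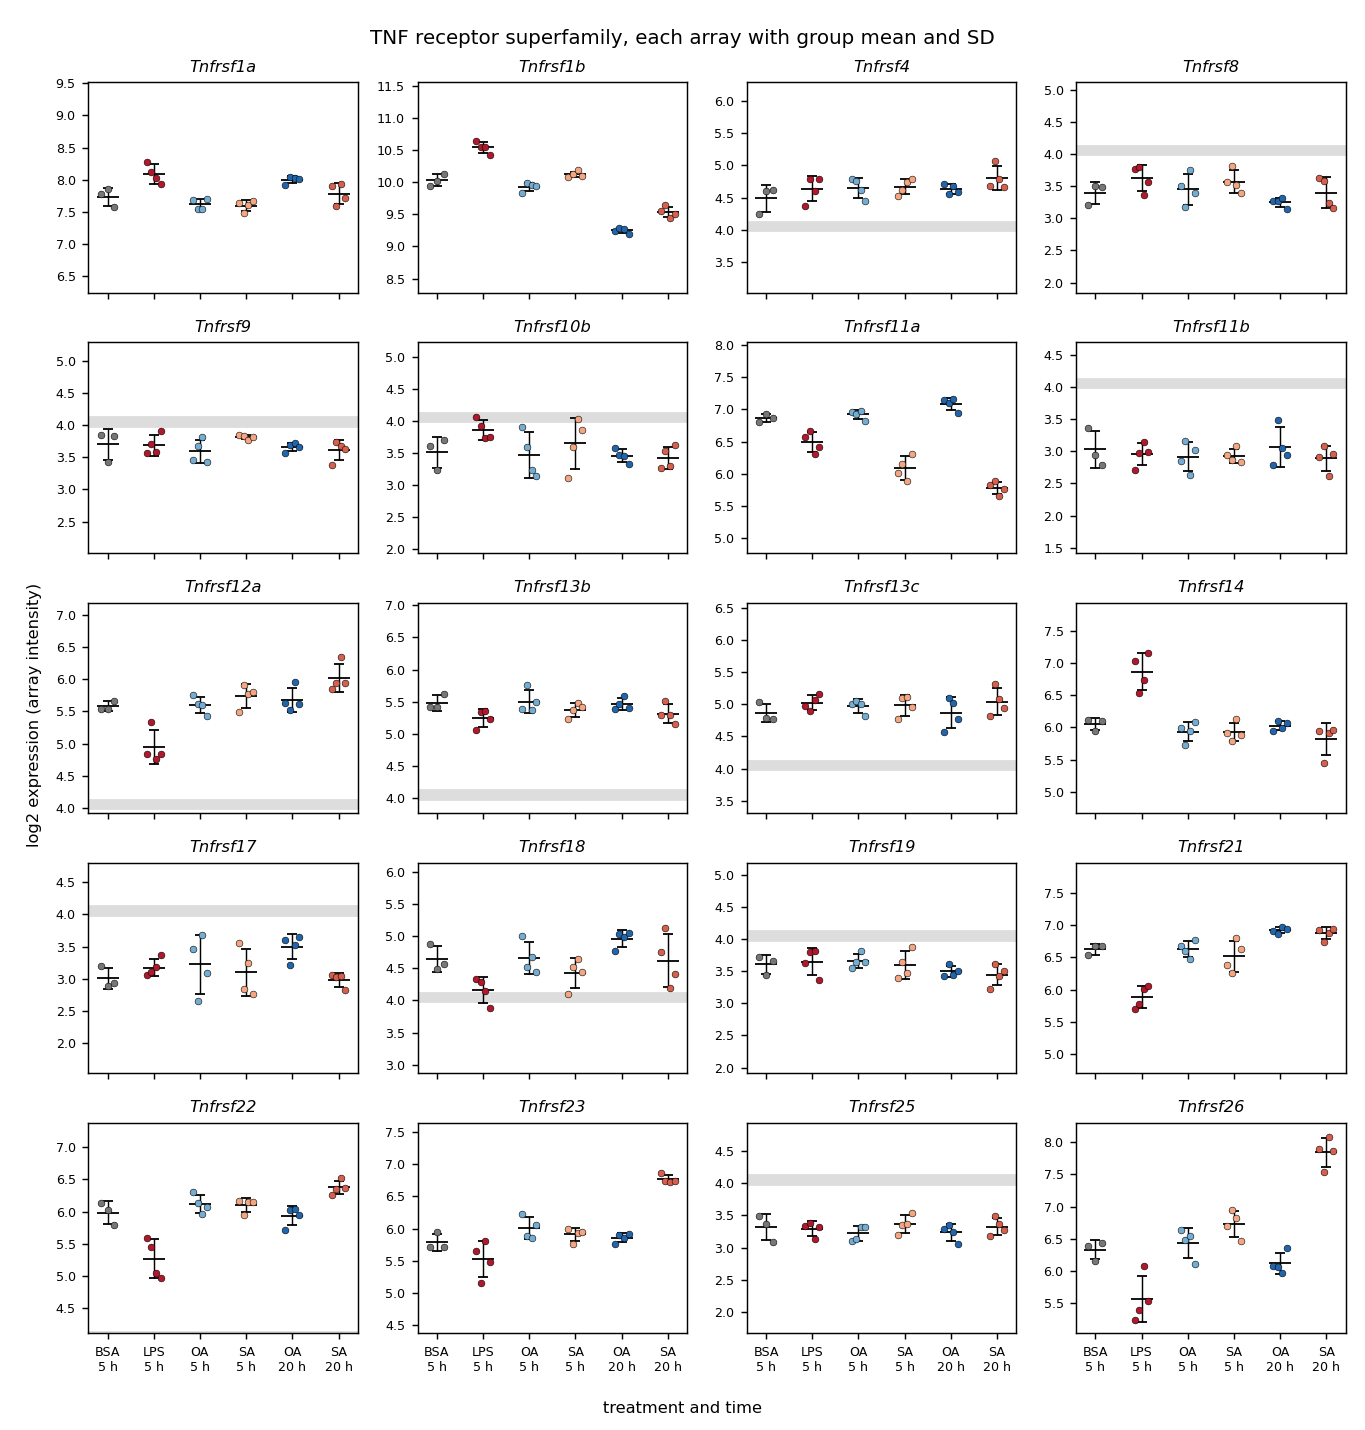
Levels of the 20 receptors on each of 23 arrays (points; y axis log2 intensity, the same span in every panel; x axis treatment and time), with group mean and SD. The 20 h SA points stand above the other groups for Tnfrsf26 and Tnfrsf23 and below the OA points for Tnfrsf11a; the LPS points are highest for Tnfrsf14.

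Over all comparisons, 16 members passed in at least 1 and 13 in none. The share of all genes that passed in at least 1 was not counted, so these counts have no reference. The 13 are Tnfsf11, Tnfsf13b, Tnfsf14, Tnfrsf4 (OX40), Tnfrsf8 (CD30), Tnfrsf9 (4-1BB), Tnfrsf10b, Tnfrsf11b (osteoprotegerin, a secreted decoy for RANK ligand), Tnfrsf13b (TACI), Tnfrsf13c (the BAFF receptor), Tnfrsf18 (GITR), Tnfrsf19 and Tnfrsf25. They include the receptors of OX40 ligand, CD30 ligand, 4-1BB ligand, GITR ligand and TL1A and the death receptor of TRAIL, while the TRAIL decoy genes Tnfrsf22 and Tnfrsf23 are among the 16. Tnfrsf8, Tnfrsf9, Tnfrsf25 and Tnfrsf10b lay below the highest array median in every group, where a change may be understated. Tnfrsf22 and Tnfrsf23 lay above it in every group, so the contrast may reflect level. Tnfrsf18 was close to the threshold. It read 4.88, 4.49 and 4.57 with vehicle and 4.34, 4.29, 4.15 and 3.89 with LPS, without overlap, a difference of -0.48 ± 0.18 (log2, SE; limma adjusted p = 0.0544). It passed with these groups fitted alone (adjusted p = 0.0271), with array weights (0.0342), with a variance trend (0.0398), without the dimmest genes (0.0423) and without the first LPS array (0.0489). Between SA and OA at 20 h its difference of -0.34 (adjusted p = 0.196) passed with array weights (adjusted p = 0.027) and without the second SA array (0.0262). Tnfrsf18 varied most among the 13 by its group means, from 4.17 ± 0.20 with LPS to 4.96 ± 0.13 in the 20 h OA group (SD, n = 4).

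Genes of the superfamily with other names were counted from lists. With LPS, 14.3% of the 7 ligands and 37.5% of the 8 receptors passed, against 22.4% of all genes. For SA against OA at 5 h the shares were 14.3% and 25%, against 5.67%, and at 20 h 14.3% and 12.5%, against 16.7%. Of 7 such ligands 1 passed with LPS, Tnf, the founding ligand (1.90 ± 0.09, limma adjusted p = 6.94e-15); 2 passed, both higher, without the third LPS array, with array weights or with arrays centred on their medians. SA also left it above its OA level, by 1.08 ± 0.08 at 5 h and 0.76 ± 0.08 at 20 h (log2, SE; limma adjusted p = 1.11e-09 and 6.39e-08). Of 8 such receptors, Cd40 rose by 3.57 ± 0.10 and Fas, a death receptor, by 1.78 ± 0.15 with LPS (limma adjusted p = 2.45e-18 and 1.1e-09), and Cd27 fell by 0.29 (limma adjusted p = 0.0493). At 5 h both Fas (1.07) and Cd40 (1.02) were above their OA level in the SA group, and at 20 h Fas (0.90) was; at 20 h a second receptor of the list passed without the third OA array. For Cd40, Fas and Tnf the 5 h OA means lay below vehicle. Mean log2 levels with vehicle, OA and SA were 6.85, 6.38 and 7.40 for Cd40, 5.85, 5.47 and 6.54 for Fas, and 9.59, 9.28 and 10.36 for Tnf. Against vehicle, OA gave 0 calls in either list (1 lower in each with a variance trend). SA left 1 of the 7 ligands and 2 of the 8 receptors higher, beside 1.94% of all genes.

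Downstream of the receptors, LPS raised 3 of 10 measured TRAF and death domain adaptors and lowered 1 (median 0.04), beside 9.22% of all genes higher and 13.2% lower. Traf1 rose by 2.88 and Traf5 by 1.13. It raised 6 of 9 genes of the caspase-8 arm (median 0.77), with Mlkl, which executes necroptosis, up by 2.31 and Cflar, an inhibitor of caspase-8, by 1.48. As that list mixes such genes with caspase-8 itself, its counts give no direction for cell death. LPS raised all 4 measured NF-kB subunits (median 0.99) and 9 of 13 inhibitors of the pathway while 2 fell (median 1.21), among them Nfkbia (1.72) and Tnfaip3 (1.62), which encodes A20. Of 12 kinases and ubiquitin ligases between receptor and NF-kB, 5 rose and 2 fell (median 0.22), and of 6 genes for shedding, 2 rose and 1 fell (median 0.20).

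With SA against OA at 5 h, 8 of 13 inhibitors were higher and 2 lower (median 0.41), beside 3.3% and 2.37% of all genes, led by Tank (0.97) and Tnfaip3 (0.81). All 4 NF-kB subunits were higher (median 0.52); without the third SA array, or with these groups fitted alone, 2 passed. The caspase-8 arm had 4 of 9 higher and 1 lower (median 0.19), with Bid (0.90) and Cflar (0.72) highest. Against vehicle at 5 h, SA left 7 inhibitors higher and 0 lower (median 0.31), beside 1.94% and 1.39% of all genes. In that comparison 2 NF-kB subunits were higher (1 with the groups fitted alone, 4 with a variance trend). The caspase-8 arm had 2 higher and 0 lower, or 3 higher and 1 lower with a variance trend. Between the acids at 20 h, 6 inhibitors were higher and 3 lower (median 0.20), beside 7.72% and 8.95% of all genes, Tnfaip3 by 0.74 and Tnip3 by -1.21. In the caspase-8 arm 3 were higher and 3 lower (median -0.03), among them Mlkl (0.73) and Ripk3 (-0.63), and of the 4 NF-kB subunits 0 passed (limma; at an unadjusted p under 0.05, 1 of them, Rel, did).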

How the data were processed

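The authors deposited a table of log2 expression values per probe set for 23 microarrays; RMA (background correction, quantile normalisation and probe summary) and limma are named without versions in the submitters' processing notes, and the role of limma is not given there. Per the labels' protocols, about 10 ng of RNA was amplified and biotin labelled, which can compress differences of weak genes. The values carry no detection flags, so the number of arrays limits the precision. Of 35556 probe sets, 21789 had 1 gene symbol in the platform annotation, 1621 had several and 12146 were unnamed here; for each of 19938 genes the probe set of highest mean was kept, with no filter on low values. A mean per group was fitted to all 23 arrays with limma 3.58.1 in R 4.3.3 (lmFit, eBayes, two-sided, Benjamini-Hochberg over all genes, threshold 0.05), after the fit was tested on simulated data. Groups were taken from the labels, which give no batch.

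All 29 members matched RefSeq by Entrez identifier and symbol. Promoter windows of 250 bases come from the RefSeq table, whose orientation was checked. Members that passed with a log2 change of at least 0.5 in any of 9 comparisons are given with every array of the groups concerned; up to 3 genes of each other list are named. The members and lists were chosen with earlier results of these data known, so counts over them are descriptions. Same-numbered arrays exceeded a correlation of 0.1 in 7 of 55 pairs. That count was not made for differently numbered arrays, so it cannot decide whether the numbers pair samples. Mean correlations by number ran from -0.007 to 0.0517, against -0.0065 for different numbers. The main fit did not use the numbers as pairs. Alternatives were other normalisations, moderation, array weights, fits of the compared groups alone, other probe set rules, a filter on dim genes, the replicate number as a block, and dropping 1 array at a time; recounting the other lists was added after seeing the data. Plots were made in matplotlib 3.10.9 (Python 3.11.15).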

Additional observations from a re-analysis of the deposited data

Results flagged for a closer look

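In 7 of 145 member groups of 4 arrays, 1 array stood apart from the other 3 by Dixon's criterion, and chance sets apart about 5 percent of such groups. Among ligands, Tnfsf8 was at 1.92 on the fourth 5 h SA array (others 2.50 to 2.61), Tnfsf10 at 2.58 on the same array (others 2.78 to 2.79), and Tnfsf13b at 4.54 on the third LPS array (others 4.07 to 4.10). Among receptors, Tnfrsf12a was at 5.33 on the second LPS array (others 4.77 to 4.84) and Tnfrsf22 at 5.94 on the second 5 h SA array (others 6.15 to 6.17). Tnfrsf14 was at 5.45 on the second 20 h SA array (others 5.92 to 5.96), which is the array that stood apart over all genes, and Tnfrsf17 at 2.82 on the fourth 20 h SA array (others 3.03 to 3.06).

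The difference between SA and OA was itself different at 20 h and at 5 h for 4 members, by the interaction term of the limma fit. The change was 1.44 ± 0.22 for Tnfrsf26 (log2, SE; adjusted p = 8.97e-05), 1.00 ± 0.16 for Tnfrsf23 (adjusted p = 0.000122), -1.37 ± 0.25 for Tnfsf9 (adjusted p = 0.000753) and -0.48 ± 0.13 for Tnfrsf11a (adjusted p = 0.037). The Tnfrsf11a call was lost in 10 of the 16 refits that left out 1 array. It was also lost with these groups fitted alone (limma adjusted p = 0.0554) and after quantile normalisation (0.0618).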

How the results depend on the processing

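The 55 member changes that passed were recomputed 946 times; 891 stayed past the threshold, 55 did not and 0 reversed. Counts of members past the threshold ranged over the other settings, and over fits without 1 array, as follows. LPS against vehicle gave 13 to 15 and 12 to 15, SA against vehicle 3 in each, OA against vehicle 0 in each, and SA against LPS 13 to 15 and 14 to 15. SA against OA gave 3 to 4 and 3 to 4 at 5 h, and 5 to 8 and 4 to 7 at 20 h, the lowest without the first 20 h OA array. From 5 h to 20 h, SA gave 5 to 7 in each, OA 2 and 1 to 2, and the change of the difference between acids 3 to 4 in each. With the replicate number as a block the counts were 14, 3, 0, 3, 6, 7, 2, 4 and 15. Their order is LPS, SA and OA against vehicle, then SA against OA at 5 h and 20 h. Next come 20 h against 5 h in SA and OA, the change of the difference, and SA against LPS. Tnfsf4 at 20 h lost the call in that fit (limma adjusted p = 0.0688). The labels do not say whether the replicate numbers pair samples. Leaving out the dimmest 25% of genes removes 3 members, Tnfsf8, Tnfsf14 and Tnfsf18. Centring arrays moved the share of higher calls among all genes from 41.2% to 52.02% for LPS against vehicle and from 58.73% to 47.48% for SA against LPS, and quantile normalisation from 28.57% to 38.89% for OA against vehicle, where all-gene counts ran from 7 to 29 against 14. The cause was not tested. Of 1422 recomputed counts over the other lists, an alternative chosen after seeing the data, 1314 stayed within 1.5 times. Without the second 20 h SA array, 7 members passed for SA against OA at 20 h, with Tnfrsf17 lost (adjusted p = 0.0746) and Tnfrsf18 gained (-0.51, adjusted p = 0.0262). With 3 or 4 arrays a group, small changes of dim members cannot be resolved.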

Other observations

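A probe set that names Tnfsf12 and Tnfsf13 together (with their fusion transcript Tnfsfm13) is outside the member rule, and these ligands, TWEAK and APRIL, are adjacent on chromosome 11. It was at 7.76 with vehicle and 6.87 with LPS (mean log2 levels), a change of -0.89 ± 0.085 (SE; limma adjusted p = 8.55e-08 over all probe sets). It was higher with SA than with LPS by 0.76 (adjusted p = 2.56e-07), and differed between SA and OA at 20 h (SA minus OA -0.27 ± 0.079; adjusted p = 0.028). Which of the transcripts accounts for the signal cannot be told apart.

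Several members lie next to each other in the genome with no coding gene between them, by the RefSeq order. Of the neighbouring pairs of members, Tnfsf4 and Tnfsf18 both rose with LPS, as did Tnfsf15 and Tnfsf8. The Tnfsf18 arrays overlapped. Its call was lost without the third vehicle array and with these groups fitted alone (limma adjusted p = 0.0635 and 0.0545). On chromosome 7 the neighbours Tnfrsf26 and Tnfrsf22 fell with LPS, while Tnfrsf23, next to Tnfrsf22, did not pass. Of Tnfrsf1b and Tnfrsf8, Tnfrsf1b passed with LPS and Tnfrsf8 in no comparison, and of Tnfrsf4 and Tnfrsf18 neither passed in any, although Tnfrsf18 was close to the threshold with LPS (adjusted p = 0.0544) and passed under some alternatives.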
